A study of Mus musculus with 15 samples.

Results

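Caerulein, a peptide that acts on the cholecystokinin receptor, was given to mouse pancreatic acini at 100 pM, the dose that the study calls physiological, and small RNA was compared with that of control acini that received no agent. The comparison uses 6 of the 15 libraries of the series, 3 with caerulein 100 pM and 3 of control, chosen by their sample titles. It covers every mature miRNA with enough counts: 351 of the 1915 in the table were tested, and 867 had a count in any of the 15 libraries. All acini came from the pancreas of C57BL/6 mice aged 7 to 8 weeks. The other groups were caerulein at 100 nM, which the study calls pathological, and the bile acid TLC-S at 62.5 uM and 250 uM, with 3 libraries each. The length of treatment and the sex of the mice are not given in the labels. RNA was pooled from independent acinar preparations, and the labels do not say which preparations a library holds, so that p-values measure only the spread between libraries, which may be technical.

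Acinar cells make digestive enzymes and release them when cholecystokinin raises their cytosolic calcium. A miRNA is cut from a hairpin whose 5p and 3p arms can each become a mature strand; usually one arm is kept and the other is degraded. Bases 2 to 8 of the mature strand, the seed, select the messenger RNAs it represses, and miRNAs that share a seed form a family.

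The sequences below belong to 10 of the 24 miRNAs with an unadjusted p under 0.05 and to the seed family that lay lowest as a whole, with the seed in capitals. They were picked after the values were seen: miR-6240 and miR-154-5p had the smallest p, miR-31-3p and miR-433-3p had some of the largest differences, miR-182-5p and miR-217-5p were abundant, miR-21a-3p is in the series title, and miR-3968, miR-204-5p and miR-17-3p are described in detail later. They are RefSeq sequences for GRCm38.p6, in which 312 of the 351 tested miRNAs were found; miR-1957a and miR-1839-3p, described later, are named without one. The first 6 were higher with caerulein than in control and the next 4 were lower, none of them past the adjusted threshold.
miR-6240: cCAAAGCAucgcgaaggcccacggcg
miR-31-3p: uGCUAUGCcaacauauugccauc
miR-21a-3p: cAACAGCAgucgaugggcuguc
miR-182-5p: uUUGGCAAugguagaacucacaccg
miR-3968: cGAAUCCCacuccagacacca
miR-217-5p: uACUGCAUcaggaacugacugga
miR-154-5p: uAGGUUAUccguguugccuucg
miR-433-3p: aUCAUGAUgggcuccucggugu
miR-204-5p: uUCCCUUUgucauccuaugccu
miR-17-3p: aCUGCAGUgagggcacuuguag
The miR-15/16 family shares the seed AGCAGCA in 6 tested members, and differs after it.
miR-195a-5p: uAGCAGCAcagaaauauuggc
miR-322-5p: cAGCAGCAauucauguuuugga
miR-15b-5p: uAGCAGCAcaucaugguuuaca
miR-497a-5p: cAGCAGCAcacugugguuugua
miR-16-5p: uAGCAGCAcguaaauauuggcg
miR-15a-5p: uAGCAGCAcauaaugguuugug

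The libraries held 1742563, 2114419 and 1095757 miRNA counts with caerulein 100 pM and 1846735, 2255758 and 2847458 in control. Levels are given as CPM (counts scaled to a common library size) after TMM scaling, which evens out differences in composition between libraries. The acinar list holds the arm pairs of miR-148a, miR-217, miR-216b and miR-216a. It took 33.6%, 49.3% and 48.4% of counts with caerulein and 27.2%, 33.9% and 58.2% in control. Most of that share was miR-148a-3p, so the share alone does not establish the cell type. miR-148a-3p alone took 23.8%, 35.4% and 36.4% with caerulein and 17.6%, 18.7% and 50.5% in control, so that replicate 3 of control stood apart from the other control libraries. The TMM factors that answered to this were 1.00, 0.768 and 0.794 with caerulein and 1.12, 1.19 and 0.735 in control. Pairs of replicates differed by far more than sampling noise, with chi-square values per degree of freedom of 65.3 to 400.1 with caerulein and 178 to 1657 in control. In such bulk RNA, fewer cells of a type and less RNA per cell cannot be told apart.

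**Figure D1:**
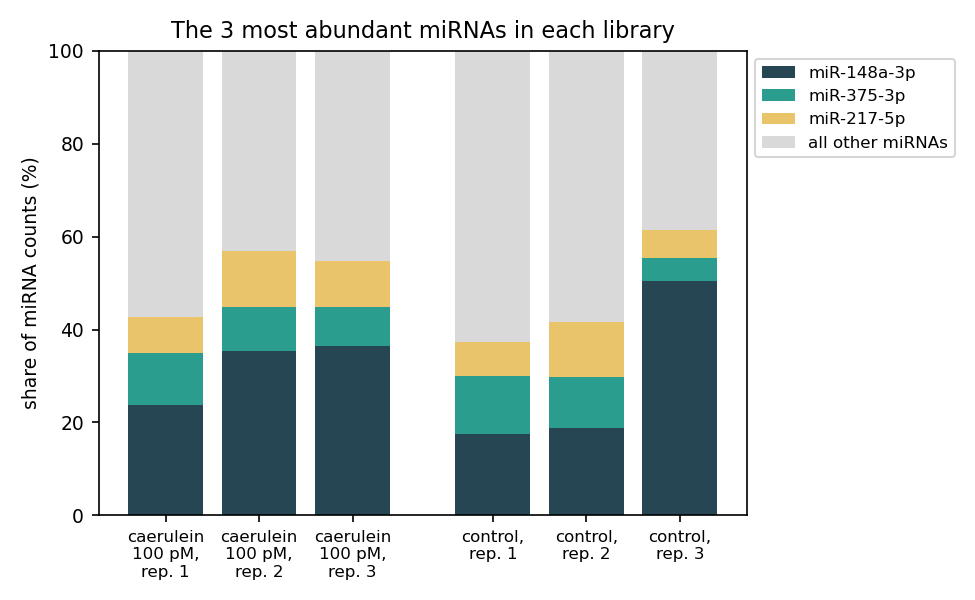
Share of all miRNA counts (%) taken by the 3 most abundant miRNAs in each of the 3 caerulein 100 pM libraries (left) and the 3 control libraries (right). miR-148a-3p took 50.5% of control replicate 3 and at most 18.7% of the other control libraries, against 23.8% to 36.4% with caerulein.

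No miRNA differed between caerulein 100 pM and control after adjustment over all miRNAs tested. Of 351, 0 (0%) passed an adjusted p under 0.05 with edgeR's quasi-likelihood test and Benjamini-Hochberg adjustment, and the smallest adjusted p was 0.406. DESeq2 also called 0, with 22 at an unadjusted p under 0.05. In edgeR 24 miRNAs, or 6.84%, had an unadjusted p under 0.05; 18 of them (5.13%) were higher with caerulein and 6 (1.71%) lower. The 24 are described here as those farthest from no difference, not as changes. Their number depended on single libraries: it was 7 without replicate 2 of caerulein 100 pM, 14 without replicate 1 of control and 15 without replicate 2 of TLC-S 62.5 uM, which enters through the shared estimate of spread. Across all 351, 180 were higher and 171 lower, with a median log2 difference of 0.01. With library totals in place of TMM that median was -0.23, so a difference under library totals is to be read against that shift.

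The width of the intervals sets what could be excluded. The median 95% interval of a log2 difference reached 0.73 to either side, and 158 of 351 intervals lay wholly within 1 of no difference. Among the 54 miRNAs with a mean of at least 1000 CPM, 46 intervals lay within that bound, and the log2 differences ran from -0.27 to 0.74. Among the 89 between 100 and 1000 CPM 74 did, among the 130 between 10 and 100 CPM 38 did, and among the 78 under 10 CPM 0 did. For most abundant miRNAs a log2 difference of 1 lay outside the interval. For those under 10 CPM the interval always reached past that bound, so a difference of 1 or more was not excluded. The abundant miRNAs were above 0 in 34 of 54 cases with a median of 0.11, against medians of 0.02, -0.08 and -0.01 in the lower classes in falling order of level. Intervals rest on the spread between libraries; the reads carry no molecule tags.

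**Figure D2:**
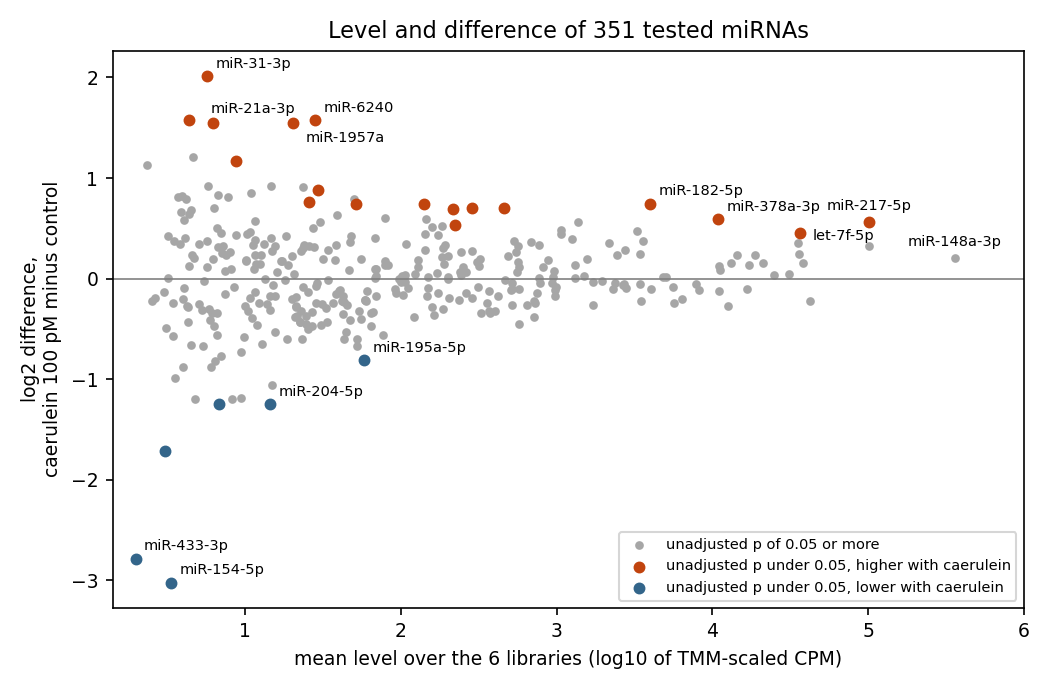
Each point is 1 of the 351 tested miRNAs, with its mean level over the 6 libraries (log10 of TMM-scaled CPM) on the horizontal axis and its log2 difference, caerulein 100 pM minus control, on the vertical axis. The 24 with an unadjusted p under 0.05 are coloured, and the scatter narrows with level: above 1000 CPM the differences ran from -0.27 to 0.74.

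The smallest p belonged to miR-6240, which maps to chr5:114851948-114852064 on the plus strand of GRCm38, outside annotated genes. It stood at 32.7, 56.6 and 36.8 CPM with caerulein and at 9.69, 21.7 and 10.5 CPM in control. Every caerulein library lay above every control library. The log2 difference was 1.58 (SE 0.46; adjusted p = 0.406, edgeR's quasi-likelihood test with Benjamini-Hochberg adjustment). In all 30 alternative settings its unadjusted p stayed under 0.05, and the log2 difference ran from 0.92 to 2.05. Its seed is shared by miR-330-3p among the miRNAs tested. The listed sequence is 26 bases long, and whether its counts came from a miRNA or from another RNA was not tested.

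Next among the higher ones was miR-1957a, at 14.3, 57.9 and 18.4 CPM with caerulein and 12.1, 7.48 and 11.9 CPM in control. The groups did not overlap, but replicate 2 of caerulein stood far above the rest: the log2 difference was 1.55 (SE 0.53) over all libraries and 0.57 without that one. miR-182-5p, made with miR-183 and miR-96 from 1 cluster that is known from sensory cells, had 3021, 5491 and 6456 CPM with caerulein and 2027, 3237 and 3673 CPM in control. The groups overlapped in 1 caerulein library, the lowest. Its log2 difference was 0.74 (SE 0.27), the largest among miRNAs above 1000 CPM. Its hairpin lies at chr6:30165918-30165992 on the minus strand, outside annotated genes. miR-183-5p of the same cluster stood at 2541, 3764 and 2786 CPM against 2798, 2051 and 2622 CPM, and miR-96-5p at 1117, 862 and 765 CPM against 1220, 722 and 1162 CPM, so that both overlapped between the groups.

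miR-3968 had 66.0, 70.8 and 55.2 CPM with caerulein and 40.7, 41.5 and 33.0 CPM in control. The groups did not overlap and each was tight, with a log2 difference of 0.74 (SE 0.28). It lies at chr11:115447961-115448060 (minus strand) across from an exon of Trim80. Whether its counts came from a miRNA or from another RNA was not tested. miR-3535 stood at 259, 499 and 299.9 CPM with caerulein and at 212, 238 and 202 CPM in control, without overlap, and its log2 difference was 0.70 (SE 0.28). Without replicate 2 of caerulein it was 0.31. The sequence of miR-3535 falls within Gm24148, a small nucleolar RNA (snoRNA) at chr1:86351981-86352127 in the nucleolin gene Ncl. miR-664-5p, likewise within a snoRNA, Snora36b, in an intron of Rab3gap2 (chr1:185242975-185243043), had 29.3, 50.5 and 34.5 CPM with caerulein and 16.5, 29.5 and 15.8 CPM in control. That gave a log2 difference of 0.88 (SE 0.39), which was 0.55 without replicate 2 of caerulein, and the lowest caerulein library lay just under the highest control library. Whether these counts came from miRNAs or from other pieces of the snoRNAs was not tested.

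Several of the 24 were minor arms, the less abundant strand of their hairpin. miR-31-3p stood at 2.87, 15.4 and 9.19 CPM with caerulein and at 0.969, 1.87 and 3.82 CPM in control, from raw counts of 5, 25 and 8 against 2, 5 and 8. Its log2 difference of 2.01 (SE 0.76) was the largest upward value among the 351. The groups overlapped in 1 library, and without replicate 2 of caerulein the difference was 1.25. The other arm, miR-31-5p, stood at 24.7, 10.5 and 8.04 CPM with caerulein and at 12.6, 20.9 and 16.7 CPM in control, with overlap. miR-27a-5p, from the miR-23a/27a/24 cluster, had 8.03, 17.9 and 10.3 CPM against 5.33, 6.36 and 4.30 CPM in control. These groups did not overlap, with a log2 difference of 1.17 (SE 0.50) that was 0.69 without replicate 2 of caerulein. Its major arm miR-27a-3p lay between 1516 and 1870 CPM with caerulein and between 1587 and 1844 CPM in control.

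miR-21a-3p, the arm that the series title names as over-expressed in acute pancreatitis, is made from a hairpin in an exon of Vmp1 (chr11:86584067-86584158, minus strand). Its raw counts were 9, 20 and 9 with caerulein and 3, 7 and 11 in control, which gave 5.16, 12.3 and 10.3 CPM against 1.45, 2.62 and 5.26 CPM. The lowest caerulein library lay just under the highest control library. The log2 difference was 1.55 (SE 0.74), with a 95% interval from 0.02 to 3.07 (adjusted p = 0.722, edgeR); without replicate 2 of caerulein it was 1.19. The major arm miR-21a-5p had 17516, 20860 and 28632 CPM with caerulein and 19141, 17905 and 23281 CPM in control. Those groups overlapped, with a log2 difference of 0.15 (SE 0.26). It stayed above 0 in 26 of the 30 alternative settings. Those in which the sign turned included library totals (-0.09) and the fit without replicate 3 of caerulein (-0.04).

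The remaining higher miRNAs of the rule were miR-200b-5p, miR-184-3p, miR-378a-3p and miR-217-5p. miR-200b-5p, the minor arm of an epithelial hairpin, had 487, 678 and 533 CPM with caerulein and 334, 445 and 262 CPM in control, without overlap (log2 difference 0.71, SE 0.30). miR-184-3p, which is known from islets and neurons, stood at 150.3, 381 and 271 CPM against 130.3, 166 and 199 CPM (0.70, SE 0.31), and without replicate 2 of caerulein the difference was 0.29. miR-217-5p, an acinar miRNA at chr11:28763728-28763835 in an intron of Gm12082, had 77408, 156979 and 126102 CPM with caerulein and 64440, 99100 and 80952 CPM in control. 2 of its caerulein libraries lay above every control library. The log2 difference was 0.56 (SE 0.26), and it was 0.26 without replicate 2 of caerulein.

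let-7f-5p, named as one of the most abundant miRNAs, was separated between the groups: it stood at 39731, 45061 and 41934 CPM with caerulein and at 32664, 24104 and 35939 CPM in control (log2 difference 0.45, SE 0.22; 0.29 without replicate 2 of control). Outside the rule, and picked after their values were seen, were the other higher members of the 24. miR-1839-3p was separated, with 32.1, 32.6 and 32.2 CPM against 20.8, 21.7 and 14.3 CPM (0.77, SE 0.36). miR-185-3p was separated as well, at 5.74, 6.16 and 8.04 CPM against 0.969, 3.37 and 1.91 CPM (1.58, SE 0.74). miR-30a-3p and miR-672-5p overlapped between the groups, with log2 differences of 0.74 and 0.53, the second of which was 0.35 without replicate 2 of caerulein. In let-7f-5p, reads that fit several let-7 members may have been divided by the authors' counting, so its level is uncertain to that extent.

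The lower miRNAs were fewer and mostly scarce. miR-154-5p, from an intron of Mirg in the imprinted Dlk1-Dio3 locus (chr12:109738433-109738498, plus strand), had raw counts of 2, 1 and 0 with caerulein and 19, 14 and 8 in control. Scaled by depth that was 1.15, 0.616 and 0 CPM against 9.21, 5.23 and 3.82 CPM, and the groups did not overlap. The ratio of summed counts, 3 with caerulein and 41 in control, was 0.118 after scaling, with an exact 95% interval from 0.0234 to 0.370 that covers counting error only. The fitted log2 difference was -3.02 (SE 0.89; adjusted p = 0.406, edgeR), and its unadjusted p stayed under 0.05 in 28 of the 28 settings in which it was tested. miR-433-3p, from the same locus opposite an exon of Rtl1 (chr12:109591715-109591838), had raw counts of 2, 0 and 0 with caerulein and 10, 8 and 6 in control. Its ratio of summed counts was 0.134, with an interval from 0.0154 to 0.541, and its fitted log2 difference was -2.78 (SE 1.15).

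miR-204-5p, from an intron of Trpm3 (chr19:22750605-22750672), had 11.5, 6.77 and 6.89 CPM with caerulein and 28.6, 22.1 and 10.5 CPM in control. The highest caerulein library lay above the lowest control library. Its log2 difference was -1.25 (SE 0.48), and it was one of the 3 miRNAs, with miR-6240 and miR-154-5p, that kept an unadjusted p under 0.05 without replicate 2 of caerulein. miR-195a-5p, at chr11:70235042-70235135 outside annotated genes, stood at 49.3, 27.7 and 49.4 CPM with caerulein and at 71.7, 85.2 and 63.1 CPM in control. The groups did not overlap, and the log2 difference was -0.81 (SE 0.33). Picked after their values were seen, miR-17-3p had 4.02, 4.31 and 3.45 CPM against 10.2, 7.48 and 11.0 CPM (-1.24, SE 0.58), and miR-192-3p had a log2 difference of -1.71 (SE 0.83) from 6 counts in 3 caerulein libraries. Both were separated between the groups.

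**Figure D3:**
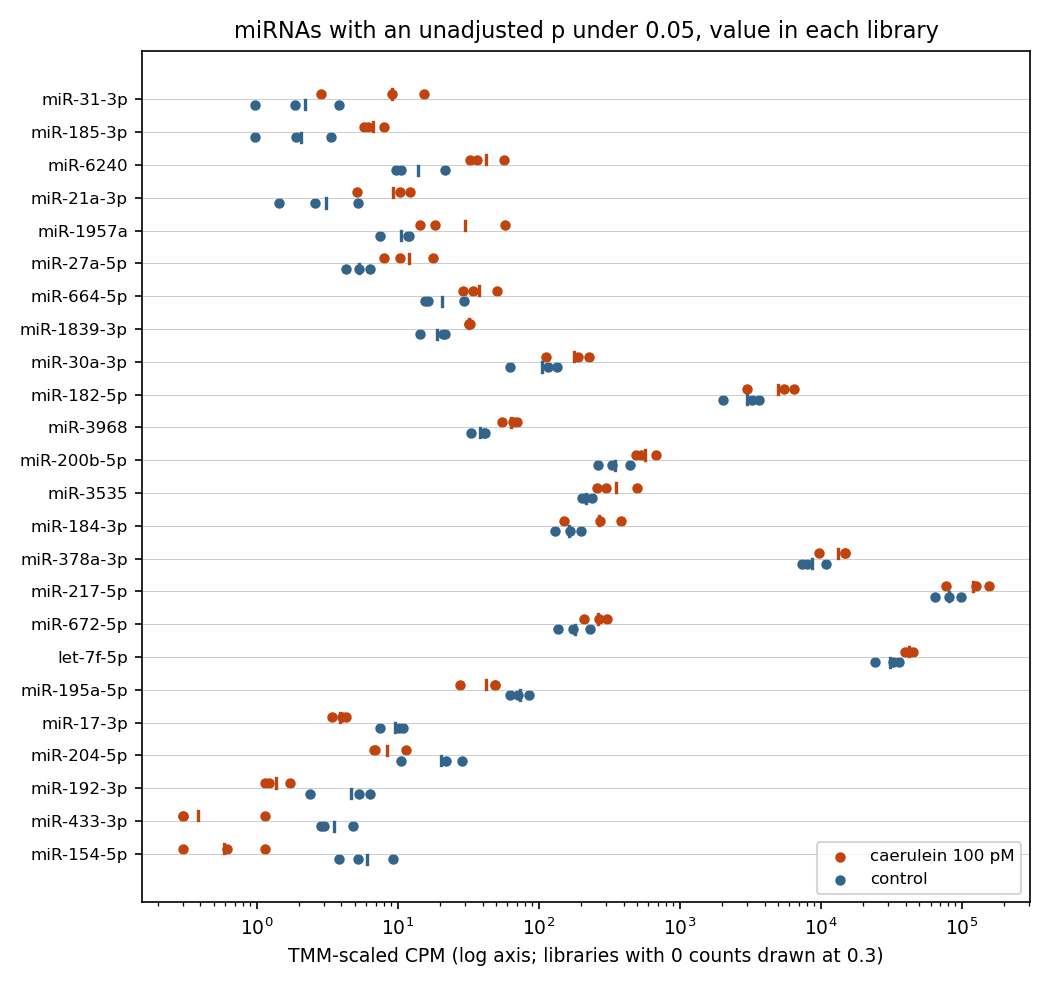
Level of each of the 24 miRNAs with an unadjusted p under 0.05 in every library, in TMM-scaled CPM on a log axis, with caerulein 100 pM above control in each row; points are libraries, bars are means, and libraries with 0 counts are drawn at 0.3. miR-6240 and miR-3968 show 3 caerulein points above 3 control points, while miR-154-5p and miR-433-3p rest on raw counts of at most 2 in any caerulein library.

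Over all 351 miRNAs, the caerulein libraries all lay above the control libraries for 19, or 5.41%, and all below them for 17, or 4.84%. Among the first of these and outside the 24 was miR-222-3p, a regulator of the cell cycle inhibitor p27, with 53.4, 40.6 and 47.1 CPM against 28.6, 32.2 and 30.1 CPM. Its log2 difference was 0.63 (SE 0.33). miR-802-5p, a miRNA of pancreas and liver, had 4613, 3537 and 3328 CPM with caerulein and 2577, 2917 and 2788 CPM in control, a log2 difference of 0.47 (SE 0.26). Both were picked after their values were seen, and neither had an unadjusted p under 0.05.

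The arms of 1 hairpin are cut from 1 precursor, and 89 hairpins had both arms tested. In 23 of them both arms were higher with caerulein, in 21 both were lower, and in 45 the arms had opposite signs. The correlation of the arms' log2 differences across these hairpins was 0.0952, given as a description of points that share their libraries. Among the 12 hairpins with 1 arm at an unadjusted p under 0.05, 0 had both arms there, and in 8 of 12 the signs were the same. miR-217 was such a case: its minor arm miR-217-3p had 259.9, 374 and 308 CPM with caerulein and 211, 301 and 265 CPM in control, a log2 difference of 0.28 (SE 0.25), beside 0.56 for miR-217-5p; without replicate 2 of caerulein these were 0.07 and 0.26. In miR-30a both arms lay above 0, with 0.74 for the 3p arm and 0.35 for the 5p arm, and all 3 caerulein libraries of the 5p arm lay above control; its 0.35 was 0.14 without replicate 2 of caerulein. miR-192 went the other way, with the 3p arm at -1.71 while miR-192-5p stood at 555, 741 and 1008 CPM with caerulein and at 512, 541 and 736 CPM in control.

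Seed families were formed only from the 312 tested miRNAs with a sequence, so they can lack members. Among the 12 families with at least 3 such members, the miR-15/16 family, which is known to repress cyclins and Bcl2, lay lowest. All 6 members were below 0, with a median log2 difference of -0.49, and they kept that side with TMM, RLE, upper-quartile and library-total scaling, against 171 of 351 miRNAs below 0 and a median of 0.01. With each of the 6 compared libraries left out in turn, all 6 members stayed below 0 and the median ran from -0.74 to -0.34. miR-322-5p, the rodent form of miR-424, had 12.0, 3.69 and 13.8 CPM with caerulein and 15.99, 25.4 and 18.2 CPM in control. Its log2 difference was -1.06 (SE 0.58), or -0.69 without replicate 2 of caerulein, and the groups were separated, as they were for miR-195a-5p and for miR-15b-5p. miR-15b-5p had 16.6, 12.9 and 8.04 CPM against 17.4, 20.6 and 17.7 CPM, a log2 difference of -0.53 (SE 0.49). miR-497a-5p (-0.45, SE 0.39), miR-16-5p (-0.34, SE 0.28) and miR-15a-5p (-0.14, SE 0.31) overlapped between the groups. miR-16-5p, the most abundant member, stood at 327, 235 and 302 CPM with caerulein and at 360, 412 and 323 CPM in control. Of the 6 members 1, miR-195a-5p, had an unadjusted p under 0.05 and 0 passed after adjustment. The family was picked after the values were seen, and its members are not independent, since near-identical strands can share reads and some share a cluster.

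The miRNAs named miR-378 were the counterpart on the higher side, and were also picked after their values were seen. All 5 were above 0, with a median of 0.56; with library totals 4 of 5 were, with a median of 0.23. miR-378a-3p, from an intron of Ppargc1b and linked to mitochondrial metabolism, had 9788, 14783 and 14922 CPM with caerulein and 7984, 10925 and 7306 CPM in control (log2 difference 0.59, SE 0.26). miR-378c had 1359, 1759 and 1802 CPM against 1036, 1513 and 787 CPM (0.56, SE 0.29), and miR-378b 146, 191 and 183 CPM against 110.0, 125 and 110 CPM (0.59, SE 0.29). The 3 strands are near-identical and may share reads, so that they are not 3 separate observations. miR-378d had 620.3, 781 and 392 CPM with caerulein and 565, 296 and 529 CPM in control (0.37, SE 0.33). The opposite arm miR-378a-5p had 145, 83.7 and 94.2 CPM against 106, 112 and 96.5 CPM (0.04, SE 0.29). Of the 5 members only miR-378b was separated between the groups, and the rest overlapped.

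The lists of miRNAs by tissue and pathway showed no set with more than 2 members at an unadjusted p under 0.05 and none with a member called. Over all miRNAs tested, 24 of 351, or 6.84%, were at such a p and 0 were called. Many of their medians turned on single libraries, and for these the value without the library is given. Acinar miRNAs were above 0 in 5 of 8 members with a median of 0.23, which was 0.01 with library totals and 0.01 without replicate 2 of caerulein, and 1 member, miR-217-5p, had an unadjusted p under 0.05. miR-148a-3p, the most abundant, had 238120, 460283 and 457760 CPM with caerulein and 157628, 157905 and 687528 CPM in control. Its log2 difference was 0.20 (SE 0.40). It turned on control replicate 3: without that library it was 1.31 (SE 0.31; adjusted p = 0.0759, edgeR), and without control replicate 1 or 2 it was below 0. No acinar miRNA passed after adjustment.

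Islet and neuroendocrine miRNAs were above 0 in 4 of 5 tested members with a median of 0.23, which was -0.03 with library totals, 0.14 without replicate 2 of control and 0.46 without its replicate 1. miR-375-3p, the leading islet miRNA, had 111864, 123034 and 106196 CPM with caerulein and 111218, 93698 and 66877 CPM in control (log2 difference 0.33, SE 0.22; 0.17 without replicate 3 of control). That list took 12.8%, 11.0% and 9.51% of counts with caerulein and 14.4%, 12.5% and 5.86% in control, and miR-124-3p, a defining neuronal miRNA, had 0 counts in all 6 libraries. The epithelial miR-200 family, which holds epithelial identity, was above 0 in 7 of 9 members with a median of 0.12, which was -0.11 with library totals; 1 member, miR-200b-5p, had an unadjusted p under 0.05. The cluster of miR-183, miR-96 and miR-182 was above 0 in 2 of 3 members with a median of 0.28, which was 0.03 with library totals and 0.04 without replicate 2 of caerulein.

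Markers of other cell types that acinar preparations can carry were present, those of leukocytes and erythrocytes at low summed levels. Endothelial miR-126a, made from Egfl7, lay below 0 in both arms, with a median of -0.33 (-0.61 to -0.14 with each of the 6 libraries left out in turn) and a summed 4851, 5534 and 8768 CPM with caerulein against 6721, 7076 and 8514 CPM in control. Leukocyte miRNAs summed to 52.8, 46.2 and 56.3 CPM with caerulein and 66.9, 71.4 and 53.05 CPM in control, erythrocyte miRNAs to 87.8, 85.6 and 117 CPM against 128, 105 and 131 CPM, and mesenchymal miRNAs to 9666, 14353 and 15168 CPM against 12127, 12987 and 12585 CPM. Of their tested members 2 of 3 leukocyte, 1 of 3 erythrocyte and 3 of 9 mesenchymal miRNAs were above 0, with medians of 0.37, -0.15 and -0.03. Without replicate 2 of caerulein these medians were 0.03, 0.12 and -0.26, so that the erythrocyte one turned sign; without replicate 1 of caerulein they were 0.51, -0.48 and 0.09, and the mesenchymal one turned sign. miR-451a, which red cells carry in quantity, had 58.5, 54.2 and 74.7 CPM with caerulein and 109, 67.7 and 99.4 CPM in control, with overlap and a log2 difference of -0.56 (SE 0.30). Liver and muscle miRNAs were above 0 in 4 of 4 members with a median of 0.89, or 0.39 without replicate 2 of caerulein, but they summed to 35.6 to 64.0 CPM with caerulein and 23.9 to 37.4 CPM in control. In that list miR-206-3p, a muscle miRNA, had a log2 difference of 0.92 (SE 0.53), which was 0.45 without that library. What part these cells had in the differences above was not tested.

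Inflammation-linked miRNAs were above 0 in 5 of 5 tested members with a median of 0.45; with library totals 4 of 5 were and the median was 0.11, and without replicate 2 of caerulein 4 of 5 were and it was 0.15. Beside miR-21a-3p they included miR-146a-5p, a brake on NF-kB signalling, with 928, 1734 and 1009 CPM with caerulein and 893.5, 1142 and 659 CPM in control (log2 difference 0.45, SE 0.32). Without replicate 2 of caerulein its difference was 0.05. miR-146b-5p had a log2 difference of 0.34 (SE 0.26), or 0.18 without replicate 2 of control, and miR-155-5p had 3.44, 8.62 and 2.30 CPM against 0.485, 4.11 and 5.26 CPM (0.59, and -0.20 without replicate 2 of caerulein). Calcium and CREB responsive miRNAs, listed because cholecystokinin receptors raise calcium, were above 0 in 1 of 3 tested members with a median of -0.60. miR-132-3p, a CREB target in neurons, had 37.9, 26.5 and 39.1 CPM with caerulein and 57.2, 45.6 and 53.05 CPM in control. Those groups did not overlap, and the log2 difference was -0.60 (SE 0.33). Among p53 and stress miRNAs 1 of 6 was above 0, with a median of -0.17 that ran from -0.35 to -0.02 with each of the 6 libraries left out in turn, and miR-210-3p, which hypoxia induces, had a log2 difference of -0.53 (SE 0.32).

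Proliferation-linked clusters differed in sign from each other. The miR-17-92 cluster, from Mir17hg on chromosome 14, was below 0 in 7 of 7 members with a median of -0.38. Over all miRNAs tested, 171 of 351 were below 0, with a median of 0.01. The side of the cluster was the same with each of the 4 scalings. Without replicate 2 of caerulein it was below 0 in 6 of 7 with a median of -0.28. Without replicate 1 of control the median was -0.23. miR-19b-3p and miR-92a-3p each have another hairpin on chromosome X, so their counts need not come from Mir17hg. Members of a cluster are not independent. miR-19b-3p had 694, 518 and 654 CPM with caerulein and 998, 817 and 610.3 CPM in control, with overlap (log2 difference -0.38, SE 0.30; -0.18 without replicate 1 of control). miR-18a-5p had 5.16, 0.616 and 12.6 CPM against 9.69, 18.3 and 9.56 CPM (-1.19, SE 0.67; -0.65 without replicate 2 and -2.08 without replicate 3 of caerulein), and 1 member, miR-17-3p, had an unadjusted p under 0.05. The paralogous miR-106b-25 cluster in Mcm7 was above 0 in 4 of 5 members with a median of 0.18, which was -0.05 with library totals and 0.06 without replicate 2 of caerulein. The cluster of miR-322, miR-503, miR-542 and miR-450 was above 0 in 3 of 7 members with a median of -0.03, which was 0.01 with upper-quartile scaling, 0.16 without replicate 3 of control and -0.33 without replicate 3 of caerulein.

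The large abundant families were near 0. let-7 members were above 0 in 5 of 9 with a median of 0.02, which was -0.01 with RLE, -0.20 with library totals and -0.14 without replicate 2 of control. The miR-30 family was above 0 in 4 of 5 with a median of 0.20, which was -0.02 with library totals and -0.05 without replicate 2 of control. The miR-29 family was above 0 in 1 of 3 with a median of -0.05, which was 0.01 without replicate 2 of caerulein. In the miR-30 family, miR-30a-5p had 35744, 48083 and 35046 CPM with caerulein and 33353, 32343 and 27268 CPM in control, without overlap (log2 difference 0.35, SE 0.21; 0.14 without replicate 2 of caerulein and 0.07 with library totals). Of the 42 listed miRNAs of the imprinted Dlk1-Dio3 locus 20 were tested, 8 above 0 and 12 below, with a median of -0.20, which was -0.50 without replicate 2 of caerulein and -0.0017 without replicate 2 of control. Besides miR-154-5p and miR-433-3p none of the 18 others had an unadjusted p under 0.05, and 4 of the 42 had 0 counts in all 6 libraries. Over all 351 miRNAs tested, 24 (6.84%) had such a p, 6 of them (1.71%) lower, and 180 were above 0 and 171 below. The summed level of the locus was 404, 681 and 754 CPM with caerulein and 587, 726 and 648 CPM in control, with overlap.

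**Figure D4:**
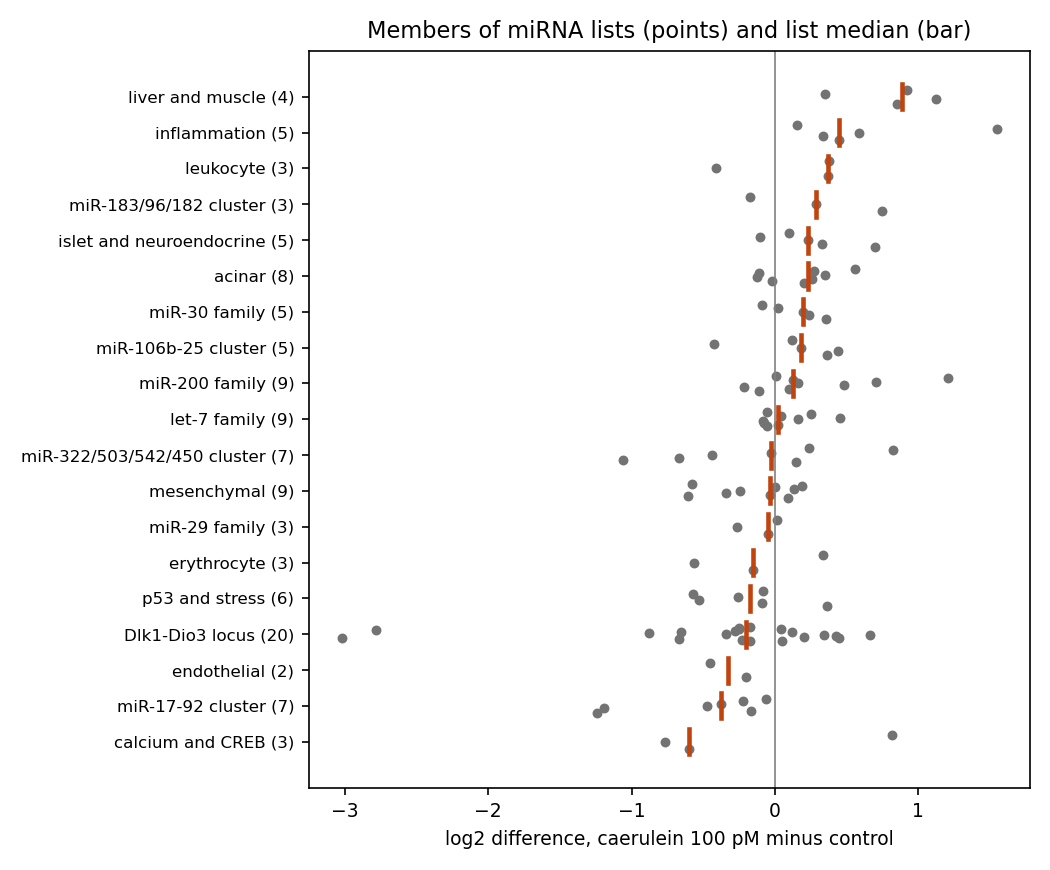
Log2 difference, caerulein 100 pM minus control, of each tested member (point) of 19 miRNA lists, with the list's median as a bar and the number tested in brackets. The medians ran from -0.60 to 0.89, and the 2 points beyond -2 in the Dlk1-Dio3 row are miR-154-5p and miR-433-3p; the sign of the medians of the islet, miR-200, let-7, miR-30, miR-106b-25 and miR-322 lists turned with at least 1 other scaling.

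The higher caerulein dose shares the control libraries, so the values of both doses against control are set side by side and not counted together. Against control 0 of 351 miRNAs passed at 100 nM and 12, or 3.42%, had an unadjusted p under 0.05. Set directly against each other, 100 pM and 100 nM differed in 0 of 351 miRNAs (0%, smallest adjusted p = 0.986, edgeR's quasi-likelihood test with Benjamini-Hochberg adjustment), with 6, or 1.71%, at an unadjusted p under 0.05. miR-6240 stood at 32.7, 56.6 and 36.8 CPM at 100 pM and at 32.3, 33.2 and 49.0 CPM at 100 nM, and its direct log2 difference was 0.12 with a 95% interval from -0.79 to 1.02. miR-3968 stood at 66.0, 70.8 and 55.2 CPM and at 75.4, 66.5 and 92.5 CPM at these doses, with a direct difference of -0.30 and an interval from -0.87 to 0.27.

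miR-154-5p had the smallest p between the doses, at 1.15, 0.616 and 0 CPM at 100 pM and 3.92, 1.75 and 7.16 CPM at 100 nM. The groups did not overlap. The direct log2 difference was -2.75 (SE 0.91) and did not pass (adjusted p = 0.986, edgeR). miR-433-3p was scarce at both doses, with 1.15, 0 and 0 CPM at 100 pM and 0.490, 0 and 1.13 CPM at 100 nM. miR-182-5p stood at 3021, 5491 and 6456 CPM at 100 pM and at 2849, 3832 and 4891 CPM at 100 nM, a direct difference of 0.37 with an interval from -0.19 to 0.93. miR-21a-3p had 5.16, 12.3 and 10.3 CPM at 100 pM and 2.94, 12.2 and 25.6 CPM at 100 nM, a direct difference of -0.64 with an interval from -2.02 to 0.74. miR-148a-3p, with 238120, 460283 and 457760 CPM at 100 pM and 237704, 189608 and 212763 CPM at 100 nM, had a direct difference of 0.85 with an interval from 0.02 to 1.69, and it too did not pass.

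**Figure D5:**
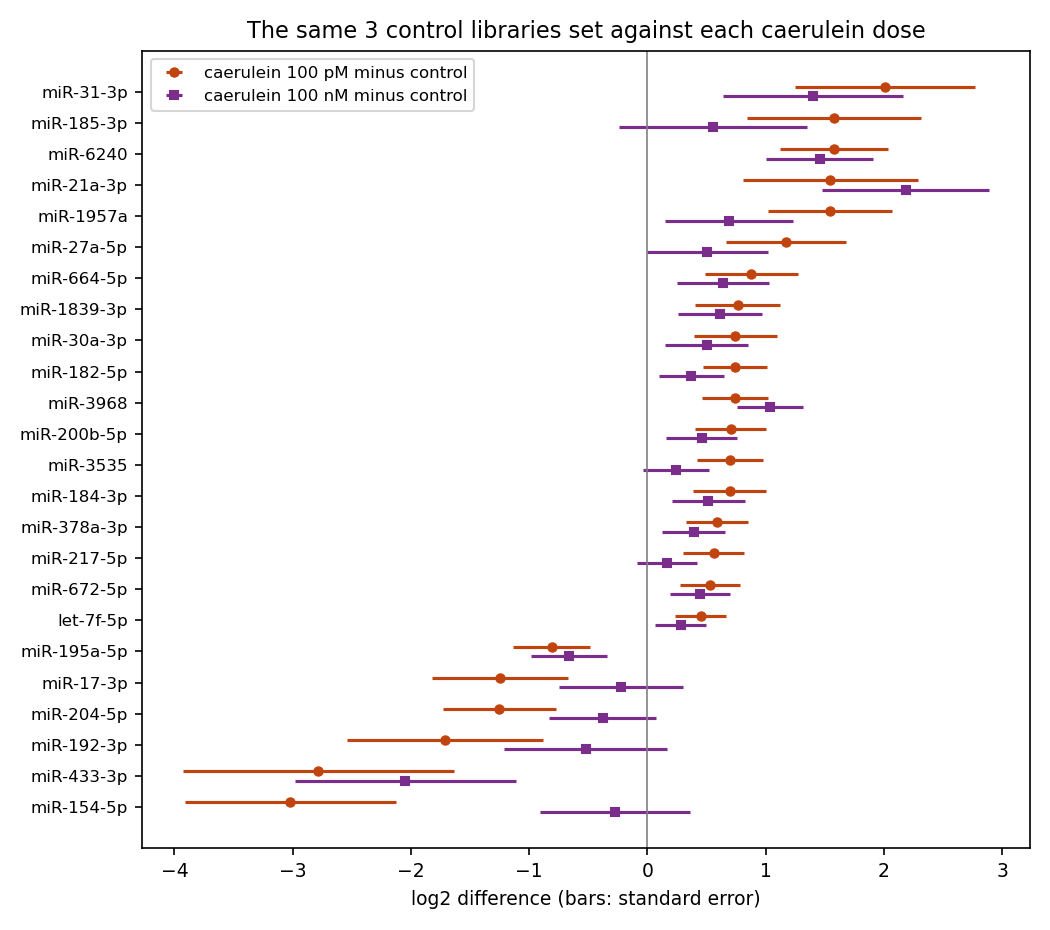
Log2 difference from the same 3 control libraries of the 24 miRNAs with an unadjusted p under 0.05 at 100 pM, for caerulein 100 pM (circles) and caerulein 100 nM (squares); bars are standard errors. miR-6240 lay at 1.58 and 1.46, while miR-154-5p lay at -3.02 and -0.28.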

How the data were processed

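Small RNA of mouse pancreatic acini was sequenced on an Illumina instrument, per the labels' protocols. The submitters' processing notes name Bowtie, cutadapt, mm10 and GRCm38. Tool versions and how counts were made are not given in these notes or labels. The mature miRNA table that the authors deposited holds estimated counts, rounded to whole numbers. A second deposited table gives RPM per precursor, used in alternatives alone. How reads that fit several precursors were divided is not stated in these sources.

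A model with a mean for each of the 5 groups was fitted to all 15 libraries with edgeR 4.0.16 under R 4.3.3, using TMM factors and filterByExpr (minimum count 10, minimum total 15), with a biological coefficient of variation of 0.285 and 10 residual degrees of freedom. The contrasts were caerulein 100 pM against control and against caerulein 100 nM. Benjamini-Hochberg adjustment ran over the 351 miRNAs, with a threshold of 0.05. Each SE of a log2 difference was derived from the F statistic. The code was tested on simulated counts. Depth ran from 535473 to 5087728 counts per library over the series.

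The members, the 19 lists and the naming rule were chosen with earlier results of these data known. The rule took both arms of miR-21a, the 16 miRNAs of smallest unadjusted p if under 6 were called, the 6 most abundant miRNAs, up to 4 abundant members of each list and the other arm of any miRNA named by p. Other list members and those described as picked after their values were seen lie outside it. Alternatives used DESeq2 1.42.0, limma 3.58.1 on log2(RPM + 1) or log2(RPM + 10), other scalings and filters, a replicate block, the 2 groups alone and leaving out libraries. Sequences and positions came from RefSeq and GENCODE M21 for GRCm38.p6. Figures were drawn with Python 3.11.15 and matplotlib 3.10.9.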

Additional observations from a re-analysis of the deposited data

How the results depend on the processing

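In all 30 alternative settings 0 miRNAs were called between caerulein 100 pM and control, and 0 between caerulein 100 pM and 100 nM. The number at an unadjusted p under 0.05, 24 as reported, was 38 with no low-count filter, 9 at a mean CPM of at least 10, 14 and 12 with limma on log2(RPM + 1) and log2(RPM + 10), and 15 with only the 2 groups compared. Leaving out libraries gave 3 to 35, the lowest without replicate 2 of every group. Replicate numbers were not treated as pairs. Same-numbered caerulein 100 pM and control libraries correlated in their deviations at 0.278, -0.03 and 0.297. Those of unlike number correlated at -0.32 to 0.07. Whether same-numbered libraries share a preparation was not tested. A replicate block gave 28 at an unadjusted p under 0.05, 23 of them shared, and 0 called. Of 52 miRNAs tried in every setting that tested them, 5 changed sign in some. Of these, miR-21a-5p was at -0.086 with library totals and at -0.094 with limma at either pseudocount, and ran from -0.044 to 0.34 when libraries were left out. Likewise miR-148a-3p ran from -0.32 to 1.31, miR-155-5p from -0.20 to 1.25, miR-126a-3p from -0.47 to 0.0048 and miR-15a-5p from -0.44 to 0.026. The cause of these shifts was not tested. Differences under 10 CPM are limited by counts of a few reads per library.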
